A study of Mus musculus with 5 samples.

Results

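Of the 7852 regions formed by joining overlapping E2F1, E2F3A and E2F3B peaks in mouse embryonic fibroblasts, 642 (8.18%) held at least 1 peak of each protein, and these common regions are described here. They were chosen by merging peaks that overlapped by at least 1 bp, in a chain, and keeping the regions with a peak of all 3 lists. The positions of the peaks therefore chose the members, and every value on overlap, width or nesting below is a description with no test. The common regions contained 643 of 3787 E2F1 peaks (16.98%, with a 95% Wilson interval of 15.8 to 18.2). They took in 655 of 1998 E2F3A peaks (32.8%, interval 30.8 to 34.9) and 684 of 4704 in the E2F3B list (14.5%, interval 13.6 to 15.6).

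The peaks came from chromatin immunoprecipitation followed by sequencing (ChIP-seq), in which chromatin is sheared, precipitated with an antibody against a protein, and the recovered DNA is sequenced to find where the protein sat. The 3 samples were unsynchronized, dividing fibroblasts of a mixed strain background (FVB/NT, 129S1/Svlmj and C57BL/6NT), 1 stably overexpressing E2F1, 1 E2F3A and 1 E2F3B. E2F1 was precipitated with an E2F1 antibody and both isoforms with the same E2F3 antibody, so isoform and shared antibody background cannot be told apart, nor can overexpressed protein be told from the cells' own E2F1 or E2F3. Each protein had a single library and no replicate, the lists carried no read counts or scores, and the depth behind a peak was unknown. The labels do not say whether the cells were a clone or a pool, and 2 knockout samples of the series were not analysed here.

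E2F1, E2F3A and E2F3B are transcription factors that bind DNA as dimers with a DP partner. They bind at short GC-rich sites that are often close to gene starts, and control genes of DNA replication and cell cycle entry. Retinoblastoma family proteins bind E2F1 and E2F3 and hold back their activity in resting cells. E2F1 is encoded by its own gene. E2F3A and E2F3B arise from 1 gene through separate promoters, share the DNA-binding and dimerization domains, and differ at the N-terminus. Sites called for all of them are thus places where factors with a closely related DNA-binding domain were detected in separate cultures, which does not show that they occupied the same DNA molecule. Genes and sequence at these positions were not analysed here.

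Most common regions had a simple make-up. Exactly 1 peak of each protein was present in 596 of the 642 (92.8%, interval 90.6 to 94.6). The other 46 held several peaks of a list, most often of E2F3B, which had more than 1 peak in 39 regions, whereas E2F3A had more than 1 in 13 and E2F1 in 1. Common regions had a median length of 803 bp (quartiles 644 and 979 bp, range 315 to 1949 bp) and spanned 539.8 kb in total.

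The bases covered by all 3 proteins made up 40.6% of that length, 219.3 kb. Such a base existed in 631 of the 642 regions (98.3%, interval 97.0 to 99.0). Where it did, the shared stretch had a median of 325 bp (quartiles 264 and 407 bp) and took up a median of 42.7% of the region. At least 100 bp were shared in 626 regions. The remaining 11 regions were joined by a chain without any base in all 3 lists, and in 8 of these 11 the E2F3A and E2F3B peaks did not touch each other but lay along 1 E2F1 peak.

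Within the 596 regions of 1 peak each, the E2F1 peak was usually the widest, and it reached both outer edges of the region in 288 (48.3%, interval 44.3 to 52.3). E2F1 peaks had a median width of 734.5 bp (quartiles 585 and 905 bp), E2F3B peaks 483 bp (377 and 599.5 bp) and E2F3A peaks 372.5 bp (298 and 455 bp). The E2F1 peak was the widest in 517 regions (86.7%), the E2F3B peak in 66 (11.1%) and the E2F3A peak in 13 (2.18%). The full order E2F1, E2F3B, E2F3A from wide to narrow was seen in 378 regions (63.4%, interval 59.5 to 67.2). E2F1 covered a median of 99.4% of the region's length, E2F3B 63.7% and E2F3A 48.6%. Peak width also depends on fragment length, depth and the caller's settings, and the part of these in the order of widths was not tested.

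**Figure D1:**
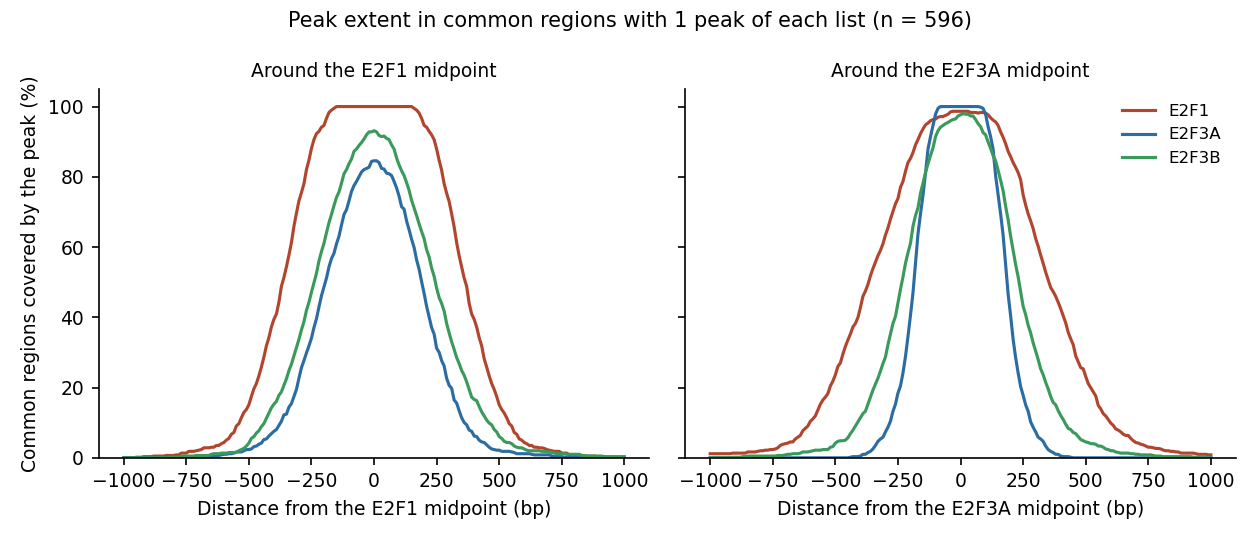
Share of the 596 common regions with 1 peak of each list (y axis, percent) in which a peak of E2F1, E2F3A or E2F3B covers the position at a given distance (x axis, bp) from the E2F1 midpoint (left) or the E2F3A midpoint (right). On the left, at distances under 550 bp, the E2F1 curve is the highest and the E2F3A curve the lowest, and the curve of the protein used for centring is symmetric by construction.

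The plot of peak extent shows where the isoforms lay under the E2F1 peak. At the E2F1 midpoint, 84.6% of regions were covered by the E2F3A peak and 93.1% by the E2F3B peak. At 300 bp to the lower-coordinate side the E2F1 peak still covered 73.2% of regions, E2F3B 33.7% and E2F3A 22.7%, and at 300 bp to the other side the shares were 73.0%, 35.6% and 20.6%. The E2F3 curves thus had nearly the same share on either side of the E2F1 midpoint. Strand and gene direction were not used, so an offset towards or away from a gene would not be seen in this profile.

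Widths of the 3 peaks went together only weakly from region to region. Across the 596 regions Spearman's rho was 0.34 for E2F3A and E2F3B widths, 0.32 for E2F1 and E2F3B, and 0.18 for E2F1 and E2F3A (Pearson's r 0.40, 0.39 and 0.23). All points of a list share a library, so these coefficients are descriptions. In regions called for only E2F3A and E2F3B the rho of their widths was 0.32 (n = 184 with 1 peak of each), and in regions called for only E2F1 and E2F3B it was 0.27 (n = 952). E2F1 peaks of a given width thus lay over E2F3A peaks of many widths.

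Nesting of 1 protein's peaks in another's followed the order of widths. The E2F3A peaks lay wholly inside E2F1 in 475 of the 642 common regions (74.0%, interval 70.5 to 77.2). E2F3B peaks lay inside E2F1 in 350 (54.5%, interval 50.6 to 58.3), and E2F3A peaks inside E2F3B in 296 (46.1%, interval 42.3 to 49.97). The reverse was uncommon, with E2F1 inside E2F3A in 5 regions, E2F1 inside E2F3B in 20 and E2F3B inside E2F3A in 62 (9.66%).

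Both isoforms lay inside E2F1 in 299 common regions (46.6%, interval 42.7 to 50.4). Only E2F3A did so in 176 (27.4%), only E2F3B in 51 (7.94%) and neither in 116 (18.1%). A complete stack, with E2F3A inside E2F3B inside E2F1, occurred in 138 regions (21.5%, interval 18.49 to 24.8), and the stack with E2F3B innermost in 27 (4.21%). Where an E2F3 peak overlapped E2F1 without being nested, in regions of 1 peak each, it usually passed 1 edge only. E2F3B passed both edges of E2F1 in 19 of 256 such regions and E2F3A in 5 of 152. The protruding part was short, with a median of 68.5 bp for E2F3B (quartiles 28.5 and 114 bp) and 54 bp for E2F3A (18.75 and 97.5 bp).

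How often both isoforms were nested went with the width of the E2F1 peak. With the 596 regions divided by E2F1 width into 4 equal groups of 149, both were inside in 32 regions (21.5%, interval 15.6 to 28.7) of the narrowest group, of 304 to 583 bp. The count was 58 (38.9%) and 82 (55.0%) in the middle groups and 116 (77.9%, interval 70.5 to 83.8) in the widest group, of 905 to 1904 bp. A wide peak can hold others more easily, so this rise is in part built in.

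Regions called for only 2 of the proteins give a background for each pair. In the 57 regions of E2F1 and E2F3A, E2F3A was nested in 66.7% (interval 53.7 to 77.5), which overlaps the interval of the common regions. In the 1002 regions of E2F1 and E2F3B, E2F3B was nested in 59.2% (interval 56.1 to 62.2), against 54.5% in common regions, with intervals that also overlap. In the 185 regions of E2F3A and E2F3B, E2F3A was nested in 31.4% (interval 25.1 to 38.4), below the 46.1% of common regions, and these intervals do not meet. Intervals cover the counting error of regions only, and no test was made because regions of a library are not replicates.

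**Figure D2:**
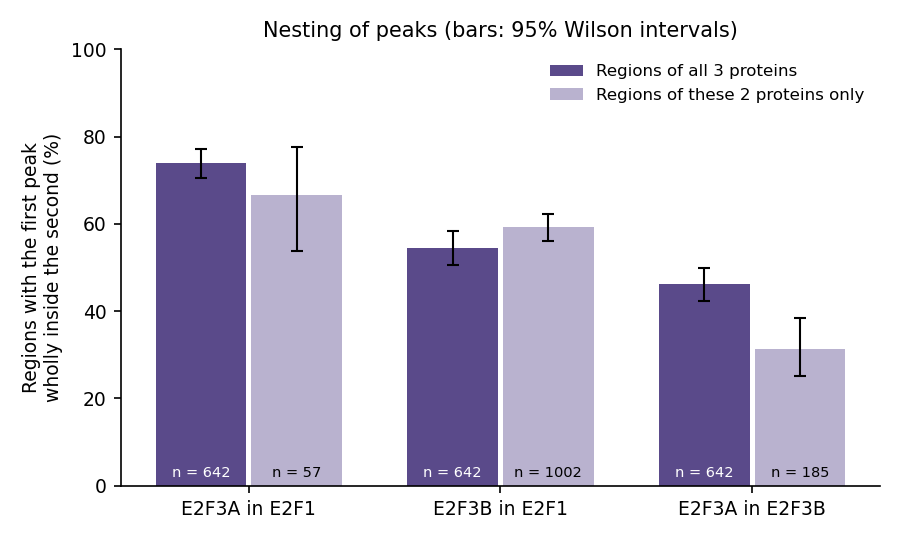
Share of regions (y axis, percent) in which every peak of the first protein lies wholly inside a peak of the second, for the 642 common regions and for regions called for those 2 proteins only, with 95% Wilson intervals as error bars. Only the bars of E2F3A in E2F3B, 46.1% and 31.4%, have intervals that do not meet.

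For the pairs with E2F3B, the higher nested share went with the larger width ratio. E2F3B peaks were a median of 1.26 times as wide as the E2F3A peak of the same common region, and 1.11 times in regions without E2F1. The E2F1 to E2F3B ratio was 1.49 in common regions and 1.66 in regions without E2F3A, while the E2F1 to E2F3A ratio was 1.94 in common regions and 1.96 in regions without E2F3B. E2F3B peaks had a median of 483 bp in common regions of 1 peak each, 399 bp in regions with E2F1 only, 367 bp in regions with E2F3A only and 337 bp where E2F3B was alone. E2F1 widths ran from 734.5 bp in common regions to 676 bp with E2F3B only, 667 bp with E2F3A only and 567 bp alone, and E2F3A widths were 372.5, 340.5 (with E2F3B), 343 (with E2F1) and 331.5 bp. In every list the median width was thus highest in the common regions of 1 peak each. For the other kinds of region all peaks were counted, also those of regions with several. The 1 bp rule itself favours wide peaks.

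By median distance, peak midpoints of the isoforms lay closer to each other than either lay to E2F1. The isoforms were the nearest pair of midpoints in 259 of 596 regions (43.5%, interval 39.5 to 47.5). E2F1 and E2F3B were nearest in 172 (28.9%), and E2F1 and E2F3A in 165 (27.7%). The median distance between E2F3A and E2F3B midpoints was 53 bp (95% interval of the median 48.5 to 59.5, quartiles 24.9 and 97.1 bp). It was 80 bp between E2F1 and E2F3A (72 to 91, quartiles 40.5 and 137 bp) and 84 bp between E2F1 and E2F3B (73 to 91, quartiles 37.5 and 141 bp). Midpoints were within 50 bp of each other in 281 of 596 regions (47.1%) for E2F3A and E2F3B, in 203 (34.1%) for E2F1 and E2F3B and in 193 (32.4%) for E2F1 and E2F3A. E2F1 peaks were the widest, which allows larger distances. As a share of the largest distance that overlap of the 2 peaks permits, the medians were 12.7% for E2F3A and E2F3B, 13.1% for E2F1 and E2F3B and 14.4% for E2F1 and E2F3A. Intervals of these medians overlapped (11.1 to 13.9%, 12.1 to 14.8% and 12.6 to 16.2%).

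The same distances were measured where the remaining protein had no call. E2F3A and E2F3B midpoints were 51.5 bp apart in the 184 regions without E2F1 and 1 peak of each (95% interval of the median 44 to 62.5), against 53 bp. E2F1 and E2F3B midpoints were 87.5 bp apart in 952 regions without E2F3A (79.5 to 97.5), against 84 bp. E2F1 and E2F3A midpoints were 97 bp apart in 57 regions without E2F3B (80.5 to 120), against 80 bp. As a share of the largest distance that overlap permits, E2F1 and E2F3A were at 19.4% without E2F3B (interval of the median 15.04 to 23.4%), against 14.4%, and E2F1 and E2F3B at 16.1% without E2F3A (14.6 to 17.6%), against 13.1%. On that scale the medians with E2F1 were thus lower in common regions, with intervals that overlapped in part. E2F3A and E2F3B were at 14.4% without E2F1 (12.9 to 16.8%), against 12.7%. The largest distance that overlap permits grows with peak width, and median widths were highest in common regions of 1 peak each. The part of peak width in the lower shares was not tested. No test of these differences was made.

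No displacement along the reference strand was seen, since each interval of the median signed difference included 0. The median signed difference was 1.75 bp for E2F3A minus E2F1 (95% interval of the median -14.5 to 15.5), -0.25 bp for E2F3B minus E2F1 (-9.5 to 13) and 0 bp for E2F3B minus E2F3A (-5.5 to 9). E2F3A lay at the higher coordinate than E2F1 in 302 of 596 regions (50.7%), and E2F3B in 295 (49.5%).

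The side of E2F1 on which each isoform lay was then counted region by region. In 467 of 596 regions (78.4%, interval 74.9 to 81.5) both E2F3 midpoints were on 1 side of the E2F1 midpoint, 235 times at higher and 232 times at lower coordinates. They lay on opposite sides in 126 (21.1%) and an E2F3 midpoint coincided with that of E2F1 in 3. The E2F3A midpoint was the middle one in 237 regions and the E2F3B midpoint in 233, and neither isoform was nearer to E2F1 as a rule, with E2F3A nearer in 293 regions (49.2%). The offsets of E2F3A and E2F3B from E2F1 had a Pearson's r of 0.67 and a Spearman's rho of 0.69 across the 596 regions. Of 3 midpoints that vary alike, each is an outer one in most regions, and more often the more it varies, so a majority on 1 side is built in. Both offsets contain the same E2F1 midpoint, which also makes r positive, and the libraries of the 2 isoforms also share the antibody.

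**Figure D3:**
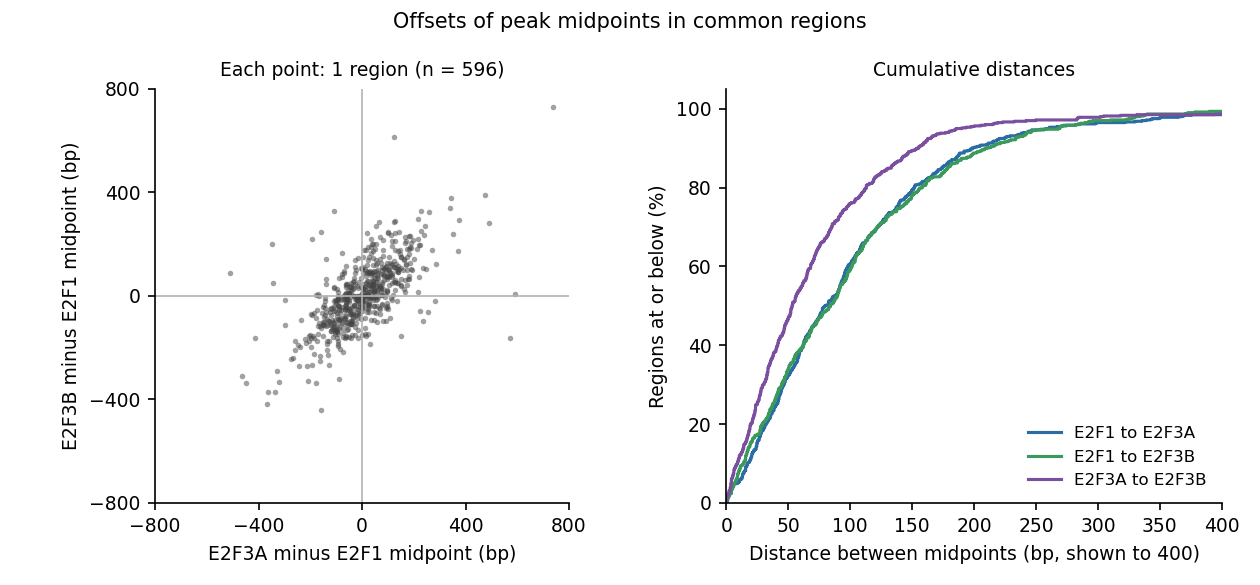
Left, offset of the E2F3A midpoint (x axis, bp) and of the E2F3B midpoint (y axis, bp) from the E2F1 midpoint, 1 point for each of the 596 regions with 1 peak of each list. Right, share of regions (y axis, percent) with a midpoint distance at or below the value on the x axis (bp), where the curve of E2F3A to E2F3B, with a median of 53 bp, rises ahead of the 2 curves with E2F1.

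When the isoform midpoints were on 1 side, they were a median of 43.5 bp apart from each other (quartiles 21 and 81 bp). The E2F3A midpoint was then a median of 92.5 bp from that of E2F1. On opposite sides the isoform midpoints were a median of 101.25 bp apart. The share on 1 side was 69.1% (interval 61.3 to 76.0) in the narrowest E2F1 group and 85.2%, 79.2% and 79.9% in the wider ones. Among the 13 chromosomes with at least 20 regions of 1 peak each it ran from 66.7% on chromosome 14 (30 regions) to 92.1% on chromosome 7 (38 regions). The median distance of the isoform midpoints ran from 35.5 bp on chromosome 9 (35 regions) to 65.25 bp on chromosome 4 (44 regions). These are the extremes of 13 small groups and carry counting error, and differences between chromosomes were not tested.

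All 3 midpoints fell within 100 bp in 243 regions (40.8%, interval 36.9 to 44.8) and within 50 bp in 78 (13.1%). The spread from the lowest to the highest midpoint had a median of 118 bp (quartiles 72.9 and 174 bp). In 465 of the 596 regions (78.0%) all 3 midpoints lay inside the bases that the 3 peaks shared.

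The region with the closest midpoints was chr17:35653262-35654450 in mm9, the build of all positions given here. Its E2F1 peak of 1189 bp held an E2F3B peak of 840 bp (35653433 to 35654272), which held an E2F3A peak of 696 bp (35653509 to 35654204), and the midpoints spread over 4 bp. Next came chr1:71149401-71149959, with peaks of 559 bp (E2F1), 475 bp (E2F3B) and 331 bp (E2F3A) and a spread of 6 bp, and chr2:121332287-121332847, with 561, 491 and 360 bp in the same order and 8.5 bp. At chr5:107392884-107393976 an E2F1 peak of 1093 bp enclosed isoform peaks of nearly equal width, 483 bp for E2F3B and 445 bp for E2F3A. Only in the fifth, chr8:82162788-82163638, was E2F3B the outermost, at 851 bp around E2F1 at 727 bp and E2F3A at 663 bp. The spread was 9 bp in each of the last pair.

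**Figure D4:**
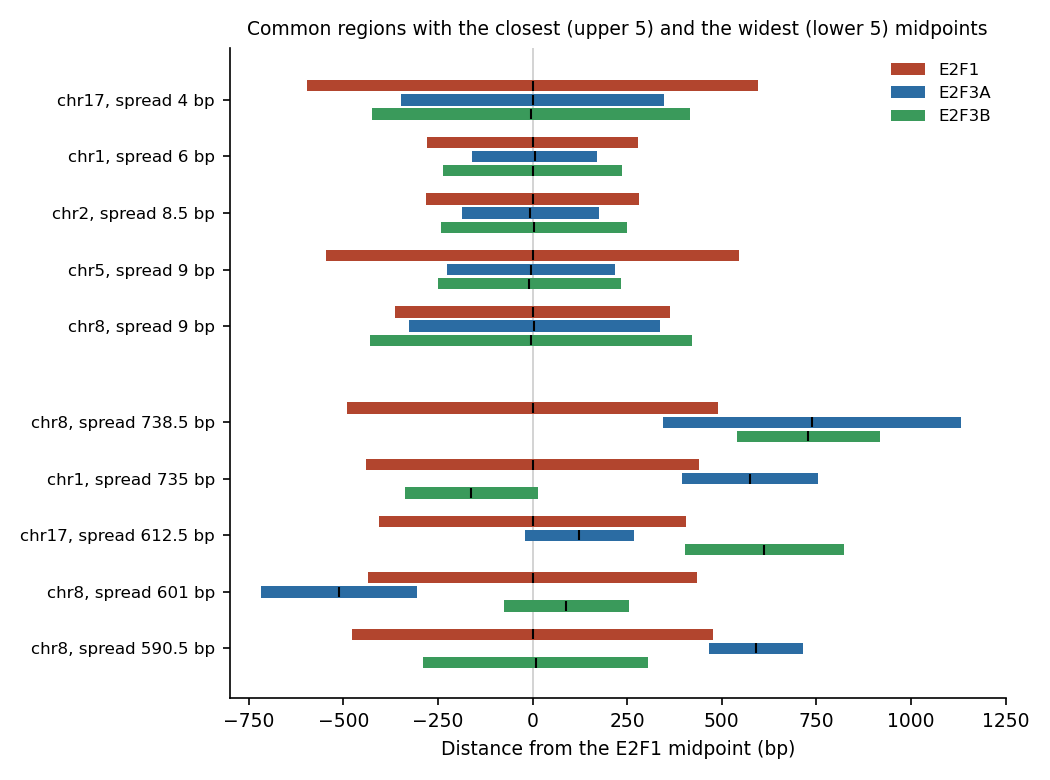
Peaks of E2F1, E2F3A and E2F3B (bars, with a tick at each midpoint) in the 5 common regions with the smallest and the 5 with the largest spread of midpoints, drawn by distance from the E2F1 midpoint (x axis, bp). The upper regions are concentric stacks with spreads of 4 to 9 bp, and in the lower ones, with spreads of 590.5 to 738.5 bp, an E2F3 peak reaches past the end of E2F1.

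In the 5 regions with the widest spread no base was covered by all 3 peaks, and 4 of them had the isoforms apart. At chr1:95582009-95583201 the E2F1 peak (880 bp) met E2F3A (359 bp) over its last 46 bp. E2F3B (351 bp) lay inside E2F1, with its midpoint on the other side of the E2F1 midpoint and 735 bp between the isoform midpoints. At chr8:9977002-9978155 E2F3A (414 bp) lay across the lower edge of E2F1 (871 bp) and E2F3B (332 bp) inside it. The isoform midpoints there were 601 bp apart. At chr8:98330952-98332144 E2F3A (249 bp) met E2F1 (956 bp) over 12 bp while the midpoint of E2F3B (594 bp) was 9 bp from that of E2F1. The isoforms changed places at chr17:47146496-47147724, where E2F3A (289 bp) was inside E2F1 (811 bp) and E2F3B (422 bp) touched it over 4 bp. The exception was chr8:83403151-83404771, the widest spread at 738.5 bp, where E2F3A (787 bp) and E2F3B (379 bp) had midpoints 10 bp apart and both lay to 1 side of E2F1 (978 bp), which overlapped E2F3A only.

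Regions with several peaks were long, with a median length of 1177 bp for the 46 (quartiles 1058 and 1394 bp). In 37 of the 39 regions with more than 1 E2F3B peak, all E2F3B peaks overlapped 1 E2F1 peak, whose median width in these 39 regions was 1020 bp. Peaks of the same list did not overlap, so several could share a region only through a peak of another list. The long regions and wide E2F1 peaks are thus in part built in. The gaps between neighbouring E2F3B peaks had a median of 78.5 bp (quartiles 48.75 and 138 bp, n = 42 gaps). Where E2F3A had a single peak, in 32 of the 39 regions, it overlapped the widest of the E2F3B peaks in 26. In 6 of the 7 regions with 2 peaks of each isoform, each E2F3A peak overlapped the E2F3B peak of the same rank along the chromosome. The widest peak is the easiest to overlap, and 2 separate peaks of each list along 1 region tend to pair by order. Both counts are thus in part built in, and no baseline was computed for them.

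Examples of such paired peaks were found on chromosomes 1, 6 and 10. At chr10:4540177-4542114 the E2F1 peak of 1722 bp overlapped E2F3A peaks of 897 and 335 bp and E2F3B peaks of 1029 and 532 bp. At chr6:51419493-51420750 E2F1 (999 bp) met E2F3A peaks of 415 and 269 bp and E2F3B peaks of 555 and 440 bp, and at chr1:193398868-193400095 E2F1 (1077 bp) met E2F3A peaks of 417 and 320 bp and E2F3B peaks of 873 and 262 bp. These 3 regions thus had the same double arrangement in both isoform lists under 1 E2F1 peak. At chr1:88337872-88339637 both E2F3A peaks (303 and 331 bp) overlapped the longer E2F3B peak of 1187 bp, and at chr5:138612046-138613817 the E2F1 peak of 1772 bp held E2F3B peaks of 235, 271 and 497 bp and 1 E2F3A peak of 365 bp that overlapped the last of them.

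At the other extreme, the shortest common regions held 3 narrow peaks. At chr5:130221160-130221474, 315 bp long, the E2F1 peak measured 304 bp, the E2F3A peak 270 bp and the E2F3B peak 271 bp, with midpoints spread over 28 bp. The next were chr5:152453613-152453977 (363, 280 and 313 bp in the same order), chr8:124471674-124472039 (337, 169 and 336 bp), chr13:23666063-23666430 (351, 323 and 291 bp) and chr9:44113798-44114174 (376, 253 and 347 bp). In these 5 regions E2F1 was the widest, by as little as 1 bp over E2F3B in the chromosome 8 region.

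Few regions depended on a marginal contact. The smallest overlap needed to keep the 3 proteins joined had a median of 344 bp and was under 50 bp in 3 regions, the chromosome 17, 8 and 1 regions above with 4, 12 and 46 bp. Just outside the rule, the nearest case was chr12:119539998-119540977, called for E2F1 and E2F3B, with an E2F3A peak 34 bp away. It was followed by chr12:25393388-25393760 and chr5:143667984-143668461, called for both isoforms, with E2F1 peaks at 74 and 94 bp. Those E2F1 peaks belonged to neighbouring common regions (chr12:25392817-25393313 and chr5:143667122-143667890). Of all 1244 regions of 2 proteins, 16 (1.29%) had a peak of the missing protein within 500 bp and 25 (2.01%) within 1 kb. In 7 of the 16 and 11 of the 25 that peak was part of a common region next to it.

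Common regions were found on the 19 autosomes and X, at shares that varied. Chromosome 17 held the largest number, 55 of its 462 merged regions (11.9%, interval 9.26 to 15.2), or 0.597 per Mb of the span its peaks covered, followed by chromosomes 15 and 2 with 51 each, or 0.511 and 0.286 per Mb. The highest share was on chromosome 7, with 41 of 337 (12.2%, interval 9.10 to 16.1), where 41 of 73 E2F3A peaks (56.2%) lay in common regions. Chromosome 18 held 1 common region among 109 (0.917%, interval 0.162 to 5.01) and chromosome 3 held 19 of 432 (4.40%, interval 2.83 to 6.77). Of the 20 intervals, 3 lay wholly above the 8.18% of all regions (chromosomes 4, 7 and 17) and 3 below (chromosomes 3, 10 and 18). Neighbouring regions are not independent, and differences in copy number between the cultures were not tested.

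**Figure D5:**
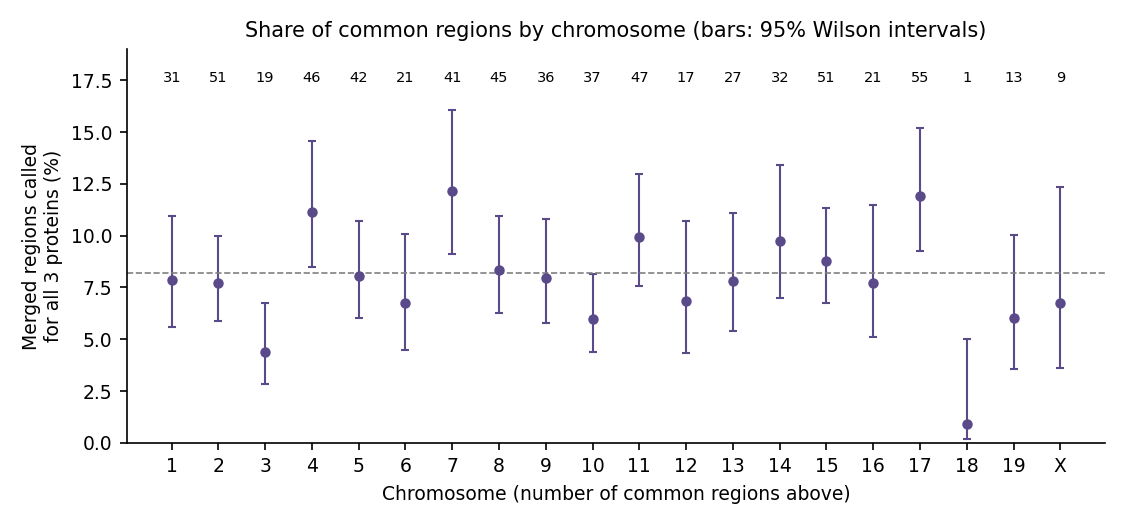
Share of merged regions called for all 3 proteins (y axis, percent) on each chromosome (x axis), with 95% Wilson intervals and the number of common regions above each point. The dashed line is the share over all regions, 8.18%, and chromosome 18, with 1 common region, has the lowest share.

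Along a chromosome, 119 of the 642 common regions (18.5%) lay within 100 kb of another, and most did not. Their spacing was not compared with a random placement. The distance from one to the nearest other had a median of 515 kb (quartiles 167 and 1748 kb), and 23 of the 642 (3.58%, interval 2.40 to 5.32) lay within 10 kb of another. For comparison, 1.97% of the 7210 other regions lay within 10 kb of a common region. Without chromosomes 10, 15 and 17 the share of common regions within 10 kb of another was 2.004% (10 of 499). The 1.97% covers all chromosomes and was not recomputed without these, so the 2 values cannot be compared. Counting merged regions of any kind as neighbours, 141 common regions (22.0%, interval 18.9 to 25.3) had one within 10 kb, and 17.6% of all merged regions did. For 63 of these 141 the nearest neighbour was called for E2F3B alone, for 21 it was called for E2F1 alone and for 21 it was another common region. These are 44.7% (interval 36.7 to 52.9), 14.9% (9.95 to 21.7) and 14.9% of the 141, and the same classes made up 35.5%, 26.5% and 8.18% of all merged regions.

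The 23 close regions formed 10 pairs and 1 group of 3, and 13 of the 23 were on chromosomes 10, 15 and 17. The tightest pair was on chromosome 17, where chr17:35973867-35974615 and chr17:35974877-35975464 were 261 bp apart, with E2F1 peaks of 749 and 588 bp, E2F3A peaks of 393 and 349 bp and E2F3B peaks of 390 and 303 bp. The next was on chromosome 10, with 295 bp between chr10:90632945-90633681 and chr10:90633977-90635092, and this pair belonged to the group of 3, which spanned 12.2 kb. Pairs on chromosome 1 (chr1:88422655-88423382 and chr1:88424133-88425990), chromosome 13 (chr13:23625131-23625847 and chr13:23626747-23627487) and chromosome 11 (chr11:69392471-69393028 and chr11:69394413-69395598) were 750, 899 and 1384 bp apart. By the rule that chose the regions, each member of these 5 pairs held its own peaks of all 3 proteins.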

How the data were processed

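Per the submitters' processing notes, Bowtie2, SAMtools and the build mm9 were used. Each deposited list holds the peaks of 1 sample by chromosome, start, end and a name that contains MACS, with no score or count. For that caller the version, threshold and control are not stated in the sources used here. Starts were taken to count from 0 and 1 was added for printing. Peaks of the 3 lists were chained into regions when they overlapped by at least 1 bp. Midpoints, widths, nesting (every peak of a protein wholly inside a peak of the other) and edge-to-edge distances were computed in Python 3.11.15 with numpy 2.4.6 and scipy 1.17.1, and the code was tested on simulated peaks. Shares have 95% Wilson intervals and medians 95% intervals from binomial order statistics, both for counting error only. No test was run, since each group had 1 library. Midpoint statistics use regions with 1 peak of each list. Named regions are those with extreme midpoint spread, most peaks, shortest length, nearest pairs and marginal overlap, except on chromosome 18, which was not used for examples. Members and this rule were chosen with earlier results of these data known. No mm9 genome or annotation was used, and no filter for artefact-prone regions was applied.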

Additional observations from a re-analysis of the deposited data

How the results depend on the processing

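The number of common regions went from 642 to 373 with midpoints within 100 bp and to 273 with the 50% widest peaks of each list, and was 428 with 50% reciprocal overlap, 631 with a base in all lists, 648 within 500 bp and, in an alternative chosen after seeing the data, 642 with starts counted from 1. Of 30 common regions named for their midpoints, peak number, length, overlap or close pairing, 12 were no longer common with midpoints within 100 bp, 12 with reciprocal overlap, 15 with the widest peaks and 5 when a shared base was required. A tolerance of 10 bp at each edge raised nesting to 77.3% (E2F3A in E2F1), 59.2% (E2F3B in E2F1) and 50.9% (E2F3A in E2F3B). In the regions with wider E2F1 peaks the midpoint distances were 96.25 bp (E2F1 to E2F3B) and 64.75 bp (E2F3A to E2F3B). With both offsets at least 20 bp, 83.3% of regions had the isoforms on 1 side of E2F1, and 76.7% did among regions with both isoforms nested in E2F1, an alternative also chosen after seeing the data. The share of common regions near another was 12.8% within 50 kb, and 2.004% within 10 kb without chromosomes 10, 15 and 17. Of the 39 alternative values, 29 stayed within the counting interval of the reported share or median, or within 1.5 times the reported count. These 29 include the counts of 428, 631, 648 and 642 and the share of 76.7%, with 428 just at that limit. No paired analysis was possible because the 3 proteins had a single library apiece. Without scores or depth, a region missing from a list may lie below its threshold.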
